A study of Mus musculus with 18 samples.

Results

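Untreated CD103+CD11b- cells were set against untreated CD103-CD11b+ cells from the same tissue, the lamina propria of the mouse colon, on 6 of the 18 arrays of the series. The arrays were chosen by their titles, which give CD103, CD11b, the experiment number and, where it was used, dextran sulfate sodium (DSS). Each side had 3 arrays, 1 from each of experiments 1, 2 and 3, and all probe sets with a single gene symbol were described. The mice were BALB/c and 8 weeks old. Colon tissue was digested with collagenase, and cells expressing MHC and high CD11c were sorted by CD103 and CD11b, so both groups share this gate and neither received DSS. Other arrays described beside them were the 3 of untreated CD103+CD11b+ cells and the 6 of the same pair of subsets from mice given 2% DSS, an agent that injures the colon epithelium. The filter and the model used all 18 arrays. The 3 arrays of CD103+CD11b+ cells from DSS mice therefore entered the estimate of the spread as well. How many mice were pooled for an array, and whether arrays hold separate animals, is not in the labels. All p-values therefore measure the spread between arrays within the groups of the series, part of which may be technical.

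CD103 and CD11b are integrin chains that are widely used to divide intestinal mononuclear phagocytes. CD103+CD11b- cells of this compartment are known mainly as type 1 conventional dendritic cells (cDC1), which take up dead cells and present their antigens to CD8 T cells, and which depend on the transcription factors IRF8 and BATF3. CD103-CD11b+ cells in a CD11c gate are known to be a mixture of type 2 conventional dendritic cells (cDC2) and of macrophages, the long-lived scavenger cells of the gut wall, whose growth depends on the receptor CSF1R. A sorted fraction is a population, and a lower level can mean fewer cells of a type or less RNA per cell. These cannot be told apart here.

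Expression is given as a log2 level from the RMA method, so that a difference of 1 is a factor of 2. A difference is always CD103+CD11b- minus CD103-CD11b+, printed with the standard error (SE) of a limma model. A gene was called when its Benjamini-Hochberg adjusted p was under 0.05 over all genes tested. Of 14003 genes, 1447 were called (10.3%), 702 of them higher (5.01%) and 745 lower (5.32%) in CD103+CD11b- cells. A difference of at least 1 was called for 494 genes (3.53%), 191 higher (1.36%) and 303 lower (2.16%). A difference of at least 2 was called for 108 genes (0.771%), 33 higher and 75 lower. The called genes thus split evenly by direction, while the large differences lay more often on the CD103-CD11b+ side. The 3 values of one group all lay above the 3 of the other for 3164 genes (22.6%), and for 1421 of the called ones. In 6227 genes (44.5%) the 95% interval of the difference lay within 0.5 on either side of 0. Arrays carry no counting depth, and their number limits the precision: the median SE was 0.166.

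**Figure D1:**
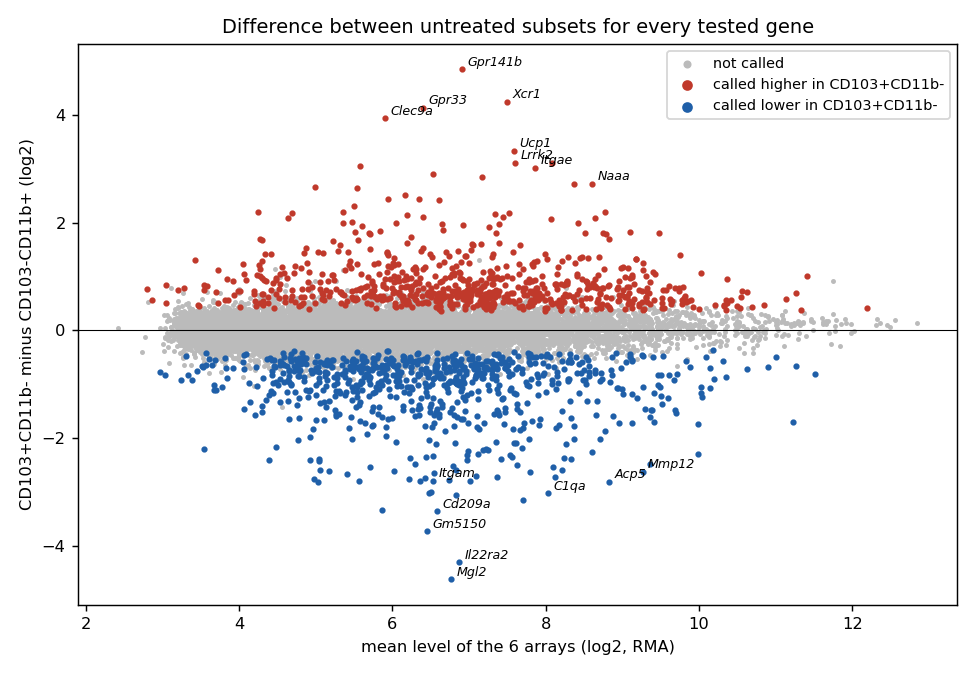
Difference of CD103+CD11b- minus CD103-CD11b+ in untreated mice (log2, vertical axis) against the mean level of the 6 arrays (log2, horizontal axis), 1 point for each of 14003 genes. Red points are the 702 genes called higher and blue points the 745 called lower in CD103+CD11b- cells, grey points were not called, and the extremes are Gpr141b at 4.84 and Mgl2 at -4.62.

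Of the 6 arrays compared, 1 stood apart. In a principal component analysis of the 9 untreated arrays, the first component held 33.9% of the variance and placed the CD103+CD11b- arrays between -31 and -27.8 and the CD103-CD11b+ arrays between 16.6 and 27.6. On the second component (17.1%) the CD103-CD11b+ array of experiment 2 lay at -28.7, while the other arrays of these 2 groups lay between -8.9 and 4.4. CD103+CD11b+ arrays were spread as widely, with that of experiment 1 at 31.6 on the second component and that of experiment 2 at -30.9 on the next one (14.9%). This array had the highest values of several macrophage genes, for example 9.87 for Csf1r against 9.44 and 9.15 in the other CD103-CD11b+ arrays. Without it, 1163 genes were called. The part of its different makeup in single results was not tested. Values without it are given for some of the genes where they change a call or move a value by more than 1.5 times. For others the text says only that a call was lost under some alternatives, which can include leaving out this array.

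The genes of the sort followed the gate. Itgae (probe set 10378286), which encodes CD103, had levels of 9.38, 9.27 and 9.45 in CD103+CD11b- cells of experiments 1, 2 and 3, and 6.45, 6.24 and 6.37 in CD103-CD11b+ cells. Itgam (probe set 10557862), which encodes CD11b, had 5.70, 5.02 and 4.70 against 7.99, 8.13 and 7.68. The groups did not overlap for either gene. Itgax, which encodes the CD11c of the shared gate, was lower in CD103+CD11b- cells by a log2 difference of -0.73 ± 0.16 (adjusted p = 0.00510). Itgb7, the partner chain of CD103, differed by 0.22 ± 0.22 with a 95% interval from -0.24 to 0.68 and was not called. The class II genes H2-Aa and H2-Ab1 of the gate differed by -0.02 (interval -0.28 to 0.23) and -0.07 (interval -0.36 to 0.22), so both populations carried class II transcripts at levels that these arrays did not separate.

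Marker genes of the cell types that the gate could hold gave the same picture of the labels, with signs of other cells on both sides. All 8 cDC1 markers were called higher in CD103+CD11b- cells, and their average level lay between 8.13 and 8.14 there and between 5.95 and 6.16 in CD103-CD11b+ cells. All 6 cDC2 markers were called lower, with averages of 5.12 to 5.41 against 7.88 to 8.22, and 6 of 7 macrophage markers were called lower, with averages of 5.71 to 5.95 against 7.29 to 8.11. The macrophage marker not called was Mertk, a receptor for dead cells, at -0.42 ± 0.19. Epithelial markers were above the filter level of 3.51 in both groups for 8 of 8 genes, none of them called, with averages of 7.92 to 8.46 against 8.11 to 8.58. Markers of B cells (4 genes), plasma cells (4) and stroma (5) were likewise above this level in both groups without a call. The averages of the groups overlapped for B cells and stroma. Those of plasma cells did not, at 7.54 to 7.78 in CD103+CD11b- cells against 7.79 to 7.86. Of 4 plasmacytoid dendritic cell markers 2 were called lower, among them the lectin Siglech at -1.58 ± 0.29. The lists hold the sort genes Itgae and Itgam themselves. One marker each was called lower for T, NK and innate lymphoid cells (Il7r, of 7 markers, 5 above the level in both groups), neutrophils (Csf3r, of 5, with 4 above the level) and endothelium (Pecam1, of 4, with 3 and 4 above the level), and 1 mast cell marker was called higher (Kit, of 5, with 3 above the level). The averages of the lymphoid, neutrophil and endothelium lists were also lower in CD103+CD11b- cells without overlap, while those of the mast cell list overlapped. The part of such other cells in the results below was not tested.

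The 4 genes with the largest rise encode receptors, among them Xcr1 and Clec9a of the cDC1 markers. Gpr141b (probe set 10407982), an orphan G protein-coupled receptor, had levels of 9.11, 9.36 and 9.51 in CD103+CD11b- cells and of 4.03, 4.36 and 5.07 in CD103-CD11b+ cells. The difference corresponds to 28.7-fold, with an adjusted p of 3.75e-11. Xcr1 (probe set 10597996), the receptor through which cDC1 follow the XCL1 made by cytotoxic lymphocytes, had 9.53, 9.76 and 9.58 against 5.63, 5.21 and 5.30, or 18.9-fold. Gpr33 (probe set 10400299), another orphan receptor, had 8.60, 8.20 and 8.60 against 4.92, 3.62 and 4.45, or 17.6-fold. Clec9a (probe set 10542181), which recognizes the actin of dead cells, had 7.93, 7.65 and 8.05 against 3.77, 3.30 and 4.74, or 15.3-fold. The groups did not overlap in these 4 genes, which the rule that picked the largest rises required. In all 4 the spread was wider among the CD103-CD11b+ arrays than among the CD103+CD11b- arrays.

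**Figure D2:**
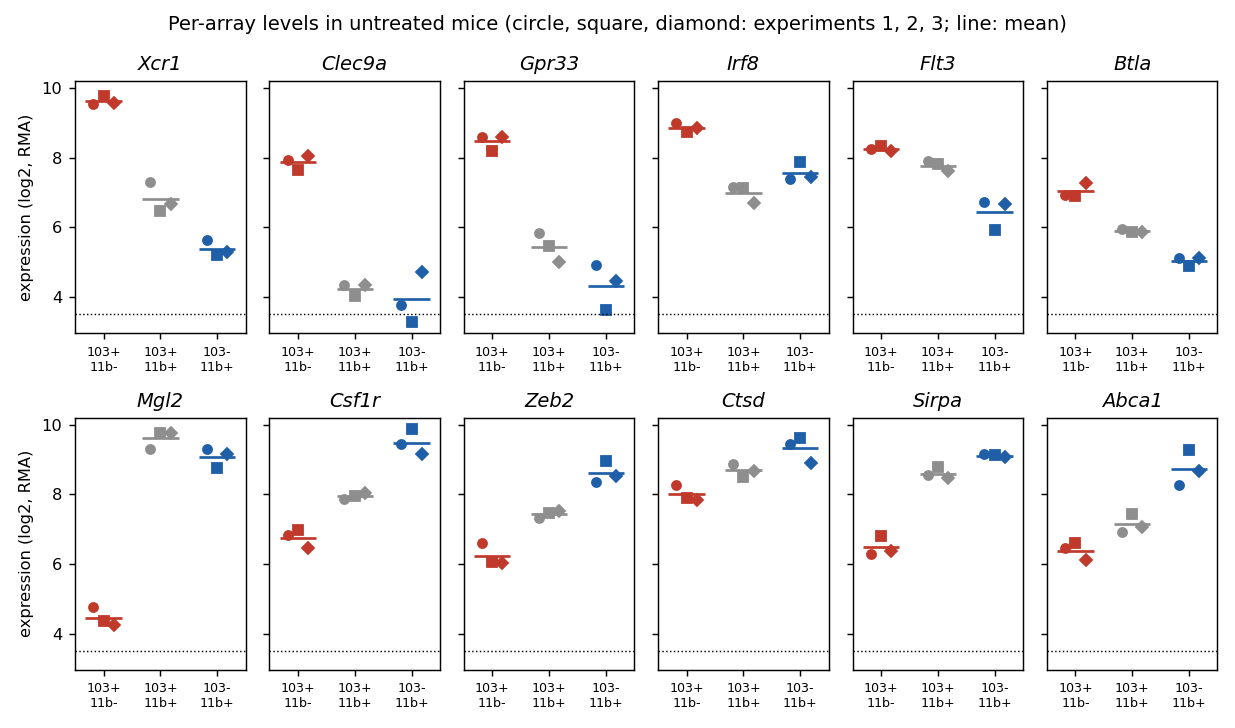
Levels (log2, RMA) of 12 genes on each of the 9 untreated arrays, by sorted subset, with symbols for experiments 1, 2 and 3, a line at the mean of each group and a dotted line at the filter level of 3.51. The upper 6 genes were higher and the lower 6 lower in CD103+CD11b- (red) than in CD103-CD11b+ cells (blue), without overlap, and grey points show CD103+CD11b+ cells.

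Further genes among the 30 largest rises were of many kinds. Cd207, which encodes the Birbeck granule lectin langerin, had levels of 9.90, 9.75 and 9.51 in CD103+CD11b- cells against 7.25, 6.82 and 6.96 (difference 2.71 ± 0.30). Naaa, a lysosomal amidase that breaks down ethanolamides, had 9.98, 9.83 and 10.09 against 7.5, 6.70 and 7.55 (2.72 ± 0.21). Both genes were well expressed in both groups. Differences of 2.4 to 2.9 were also found for Dpy19l3, a C-mannosyltransferase, at 2.85 ± 0.19, for Mab21l3 at 2.67 ± 0.19, for Gcsam at 2.64 ± 0.21, for the semaphorin Sema4f at 2.51 ± 0.29, for the G protein subunit Gnb4 at 2.44 ± 0.20 and for the inhibitory lectin Clec12a at 2.43 ± 0.22. The cytoskeletal genes Map1b, known from neurons, and Septin3 were higher by 2.20 ± 0.20 and 2.10 ± 0.23. The RNA-binding genes Khdrbs3 and Zc3h12c differed by 2.20 ± 0.24 and 2.11 ± 0.19, and the HMG-box gene Bbx by 2.17 ± 0.15. Hepacam2, an adhesion molecule, had 8.53, 8.58 and 8.71 against 6.54, 6.35 and 6.40. Ppef2, a phosphatase best known from photoreceptors, was higher by at least 2.20, a lower bound because its mean in CD103-CD11b+ cells lay under the filter level.

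The largest falls were led by lectins and secreted proteins. Mgl2 (probe set 10377774), a galactose-binding lectin of cDC2 and macrophages, had levels of 4.76, 4.36 and 4.25 in CD103+CD11b- cells and of 9.31, 8.76 and 9.16 in CD103-CD11b+ cells, 24.6-fold lower. Il22ra2 (probe set 10361906), the soluble receptor that captures interleukin 22, had 4.62, 4.40 and 5.14 against 9.42, 9.09 and 8.56, or 19.8-fold lower. Gm5150 (probe set 10497372), a predicted gene, had 4.49, 5.06 and 4.23 against 8.06, 8.67 and 8.24, or 13.2-fold lower. No array of one group reached the other in these genes, which the rule that picked the largest falls required.

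Among the 30 largest falls were several genes of macrophage scavenging and tissue remodelling. Acp5, the tartrate-resistant acid phosphatase, had levels of 7.55, 7.59 and 7.13 in CD103+CD11b- cells against 10.18, 10.59 and 9.92 (difference -2.81 ± 0.20). The scavenger receptor Msr1 had 4.95, 5.31 and 4.63 against 7.5, 8.42 and 7.38 (-2.80 ± 0.25). Nrg1, a growth factor for epithelial ERBB receptors, had 5.40, 5.57 and 5.88 against 8.25, 8.51 and 8.49 (-2.80 ± 0.19). For these 3 genes the lowest CD103-CD11b+ array lay more than 2 above the highest CD103+CD11b- array. Differences of -2.8 to -2.6 were also found for the lectin Clec4a1, the chemokine receptor Ccr1, the paired receptors Pilrb1 and Pilrb2, the lectin Clec4e (Mincle), which binds mycobacterial glycolipid, the complement gene C1qb, the leukocyte gene Lst1, the protease inhibitor Cst7 and Plxdc2. Hal, which starts the breakdown of histidine, had 4.70, 5.05 and 4.75 against 7.49, 7.89 and 7.42. Dmxl2, an organizer of vesicle acidification, differed by -2.61 ± 0.18. Hamp, the iron hormone hepcidin, had 3.29, 4.62 and 3.38 against 7.22, 5.41 and 6.43, so its groups did not overlap but lay close in experiment 2. Pilrb1 and Pilrb2, the Clec4 genes and Gpr141 with Gpr141b are close paralogs, and probes of such genes can share signal.

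Transcription factors of dendritic cell lineages were called in both directions: 8 of 27 were higher (29.6%, beside 5.01% of all genes) and 7 lower (25.9%, beside 5.32%). Irf8, the factor cDC1 need for development and survival, had levels of 8.99, 8.75 and 8.84 in CD103+CD11b- cells against 7.38, 7.88 and 7.46 (difference 1.29 ± 0.18). Hhex, a homeobox repressor, rose most on this list, with 8.30, 8.05 and 8.25 against 6.38, 6.72 and 6.66 (1.61 ± 0.21). Runx1 differed by 0.81 ± 0.13, the inhibitor of E proteins Id2 by 0.74 ± 0.15, the Notch effector Rbpj by 0.88 ± 0.13 and the NF-kB subunit Relb by 0.68 ± 0.14. Batf3, the partner of IRF8 in cDC1, had 6.63, 6.60 and 6.71 against 6.11, 5.71 and 6.08, a difference of only 0.68 ± 0.17, and its adjusted p was 0.068 without the CD103-CD11b+ array of experiment 2. Bcl6 was higher by 0.85 ± 0.23, a call that was lost without any 1 of 4 arrays, with an adjusted p of up to 0.105. On the other side, Zeb2, a repressor that favours cDC2 and monocyte fates, had 6.61, 6.06 and 6.02 against 8.35, 8.95 and 8.54 (-2.38 ± 0.17). Prdm1 (Blimp-1) differed by -1.48 ± 0.22, the plasmacytoid and cDC2 factor Tcf4 by -0.74 ± 0.14 and Irf4, on which cDC2 depend, by -0.70 ± 0.16. Spi1, which encodes PU.1, had 9.24, 9.10 and 9.13 against 9.64, 9.75 and 9.55 (-0.49 ± 0.14), a call lost without any array but the CD103-CD11b+ one of experiment 3. The list's count of lower genes fell to 4 without the CD103+CD11b- array of experiment 1 or of experiment 3. Zbtb46, a factor shared by all conventional dendritic cells, differed by 0.14 ± 0.15 (interval -0.17 to 0.46), Klf4 by 0.00 (interval -0.37 to 0.37) and Nfil3 by 0.12 (interval -0.15 to 0.39).

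Among 28 tested factors of macrophages and monocytes, 7 were lower (25%) and 2 higher (7.1%) in CD103+CD11b- cells, beside 5.32% and 5.01% of all genes. Tfec, a relative of MITF found in macrophages and osteoclasts, had levels of 4.28, 4.15 and 3.12 against 6.12, 6.72 and 5.87, a difference of -2.39 ± 0.27. The lipid-sensing nuclear receptor Nr1h3 (LXR alpha) differed by -0.68 ± 0.16 and the monocyte factor Cebpb by -0.77 ± 0.15. Spic, the factor of iron-recycling macrophages, differed by -1.50 ± 0.36, or by -0.95 (adjusted p = 0.0506) without the CD103-CD11b+ array of experiment 2. The higher members were the nuclear receptor Nr4a2, with 9.56, 9.61 and 9.62 against 8.55, 8.33 and 8.36, and the AP-1 repressor Jdp2 at 1.02 ± 0.16. Without 1 of 3 arrays (CD103+CD11b- of experiments 1 and 3, CD103-CD11b+ of experiment 1) the lower count was 4, and in a fit on only the 6 arrays compared it was 3. The higher count was 4 with an intensity trend and robust prior and 5 with a filter at the 60th percentile. Maf, Mitf, Tfeb and Tfe3 were not called, at -0.16 ± 0.12, -0.33 ± 0.14, -0.31 ± 0.20 and 0.29 ± 0.13.

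Of 11 growth factor receptors 2 were higher (18.2%) and 3 lower (27.3%), beside 5.01% and 5.32% of all genes. Flt3, the receptor that sustains conventional dendritic cells, had levels of 8.23, 8.33 and 8.20 in CD103+CD11b- cells against 6.73, 5.93 and 6.67 in CD103-CD11b+ cells, a difference of 1.81 ± 0.17. Kit, the receptor for stem cell factor, was higher by 0.90 ± 0.16. Csf1r, the receptor of macrophage colony-stimulating factor, had 6.84, 6.98 and 6.46 against 9.44, 9.87 and 9.15 (-2.73 ± 0.17), and Csf3r, the receptor of granulocyte colony-stimulating factor, differed by -1.84 ± 0.22. The main receptor chains for GM-CSF were not called: Csf2ra differed by -0.11 (interval -0.44 to 0.21) and Csf2rb by 0.17 (interval -0.06 to 0.41), while the related Csf2rb2 was lower by -0.36 ± 0.11, a call lost with the experiment as a block (adjusted p = 0.0513) and without any 1 of the 6 arrays (up to 0.246 over the alternatives).

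Genes of antigen capture and cross-presentation, the loading of engulfed antigen onto MHC class I, held the highest share of higher genes among the lists: 14 of 35 (40%, beside 5.01% of all genes) were higher and 3 lower, with a median difference of 0.29 beside 0.01 over all genes. Besides Xcr1 and Clec9a they included the adhesion molecule Cadm1 at 1.20 ± 0.24, the double-stranded RNA receptor Tlr3 at 1.18 ± 0.17 and Rab27a, a GTPase of secretory lysosomes, at 0.77 ± 0.16. Naaa and Gcsam, named above among the largest rises, are on the list too. Xcr1, Clec9a, Cadm1 and Tlr3 were also cDC1 markers used above, so they are not a separate reading. Part of the list's share was thus set by the choice of its members. Ly75 (DEC-205), an endocytic receptor named here outside the rule for naming genes, had 9.61, 9.66 and 9.79 against 7.67, 7.40 and 7.73. The lower members were Cybb and Cyba, both chains of the membrane part of the NADPH oxidase, and the profilin receptor Tlr12. Cybb had 7.25, 7.20 and 6.96 against 9.28, 9.91 and 9.39, Cyba differed by -0.91 ± 0.22 (adjusted p = 0.055 without the CD103-CD11b+ array of experiment 2), and the groups overlapped for Tlr12, which differed by -0.87 ± 0.27, or by -0.55 (not called) without that array.

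Lysosomal proteases and hydrolases ran the other way. Lysosomes digest engulfed material, and many of their genes share a short promoter element, TCACGTG, that is known to bind TFEB, TFE3 and MITF and is called the CLEAR element. Of 45 tested genes 23 were lower in CD103+CD11b- cells (51.1%, beside 5.32% of all genes) and 3 higher, with a median of -0.58. Ctsa, which protects other lysosomal enzymes, had levels of 8.69, 8.64 and 8.35 against 10.21, 10.49 and 10.08 (-1.70 ± 0.14). The peptidase Tpp1 differed by -1.69 ± 0.17, cathepsin L (Ctsl) by -1.64 ± 0.22 and legumain (Lgmn) by -1.36 ± 0.15. Further members (3) are named outside the rule, after their values were seen, because their promoters are printed. Ctsd, cathepsin D, had 8.28, 7.90 and 7.85 against 9.45, 9.62 and 8.91. Lamp1, a membrane protein of lysosomes, had 9.04, 8.94 and 8.91 against 10.18, 10.31 and 10.19. Gla, the galactosidase alpha, had 7.47, 7.53 and 7.57 against 8.86, 9.68 and 8.90. The groups did not overlap for Ctsa, Ctsd, Lamp1 and Gla, which held for 22.6% of all genes tested. The members that went the other way were Naaa, the palmitoyl thioesterase Ppt1 at 1.40 ± 0.23, and the secreted cathepsin inhibitor Cst3 at 0.42 ± 0.12, whose call was lost without each of 5 arrays in turn (all but the CD103-CD11b+ array of experiment 3), with an adjusted p of up to 0.119. Of 16 subunits of the vacuolar proton pump, which acidifies lysosomes, 3 were lower (18.8%) and none higher, with a median of -0.34. The lower count was 1 without the CD103+CD11b- array of experiment 3 and 6 without the CD103-CD11b+ array of experiment 3, and with the experiment as a block 5 were lower and 1 higher.

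The CLEAR element was looked for on both strands of the 250 bases before each annotated start of a gene. RefSeq sequences of the GRCm38.p6 mouse assembly were used, which comes from another strain than BALB/c. Some genes have several starts, and a gene counted when any of its windows matched. Shares of genes are therefore not the same measure as shares of windows. A promoter was given for 19 of the 23 lower lysosomal genes, and 5 of them held TCACGTG (26.3%), beside 5.4% of the 11082 tested genes with a promoter and 3.1% of all 32851 promoter windows. Of 39 lysosomal genes with a promoter in either direction or without a call, 9 held it (23.1%), so the share in the lower genes was close to that of the list. The uncalled genes with a match were Glb1 at -0.54 ± 0.21, Naglu at 0.07 ± 0.25, Gaa at -0.55 ± 0.22 and Sgsh at -0.37 ± 0.15. The 5 stretches of 120 bases that hold the matches are printed 5′ to 3′ on the strand of the gene, with the bases of every match in capitals. TCACGTGA reads as a match on both strands, and Lamp1 held 4 separate matches.
Ctsa, chr2:164833653-164833772, plus strand: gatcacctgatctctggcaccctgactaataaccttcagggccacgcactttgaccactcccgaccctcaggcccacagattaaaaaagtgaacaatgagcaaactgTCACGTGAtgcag
Ctsd, chr7:142387828-142387947, minus strand: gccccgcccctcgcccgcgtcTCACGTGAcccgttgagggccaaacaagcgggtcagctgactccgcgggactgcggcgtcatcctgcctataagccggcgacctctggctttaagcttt
Lamp1, chr8:13159041-13159160, plus strand: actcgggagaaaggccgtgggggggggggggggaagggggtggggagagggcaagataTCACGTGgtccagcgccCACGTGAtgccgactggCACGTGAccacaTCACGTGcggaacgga
Lgmn, chr12:102439093-102439212, minus strand: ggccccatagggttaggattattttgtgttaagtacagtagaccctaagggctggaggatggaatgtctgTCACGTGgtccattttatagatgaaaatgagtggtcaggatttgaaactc
Gla, chrX:134601136-134601255, minus strand: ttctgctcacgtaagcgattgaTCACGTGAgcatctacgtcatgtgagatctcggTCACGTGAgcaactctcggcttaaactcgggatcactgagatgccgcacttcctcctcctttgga

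Inhibitory and activating receptors of myeloid cells held the largest share of lower genes of any list described: 27 of 41 (65.9%), with 2 higher and a median of -1.29. Sirpa, the receptor for the CD47 signal that restrains phagocytosis, had levels of 6.30, 6.82 and 6.36 in CD103+CD11b- cells against 9.15, 9.12 and 9.07 in CD103-CD11b+ cells, a difference of -2.62 ± 0.14. Clec4n (Dectin-2), which binds fungal mannans, differed by -2.54 ± 0.19, and Clec4e had 4.87, 5.64 and 4.66 against 7.91, 8.09 and 7.36. Both higher members were Clec12a and the TREM family receptor Treml4, with 9.18, 8.83 and 9.32 against 7.57, 6.85 and 6.68. Fc receptors and complement had 12 of 20 lower (60%) and none higher, with a median of -1.78. The C1q chains C1qa, C1qb and C1qc, which start the classical complement pathway, were lower by -3.02 ± 0.18, -2.73 ± 0.20 and -2.47 ± 0.19, and complement factor B (Cfb) by -2.41 ± 0.25. Of 13 Ms4a genes, which encode membrane proteins of myeloid cells and lymphocytes, 6 were lower (46.2%) and none higher. Ms4a7 led them with 5.67, 5.96 and 4.96 against 7.27, 9.38 and 7.49. C-type lectins were divided, with 10 of 26 lower (38.5%) and 5 higher (19.2%), beside 5.32% and 5.01% of all genes. The higher ones after Clec9a and Clec12a were Clec1a at 1.42 ± 0.23, Clec4b2 at a lower bound of 1.13 and Clec16a. Clec16a, a gene of endosomal traffic without sugar binding, differed by 0.51 ± 0.14 (lost under some alternatives, which here and below include leaving out 1 array). Some of the lower genes were also markers used above, C1qa and Fcgr1 for macrophages and Sirpa for cDC2, so they are not a separate reading. The part of macrophage or cDC2 content was not tested.

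**Figure D3:**
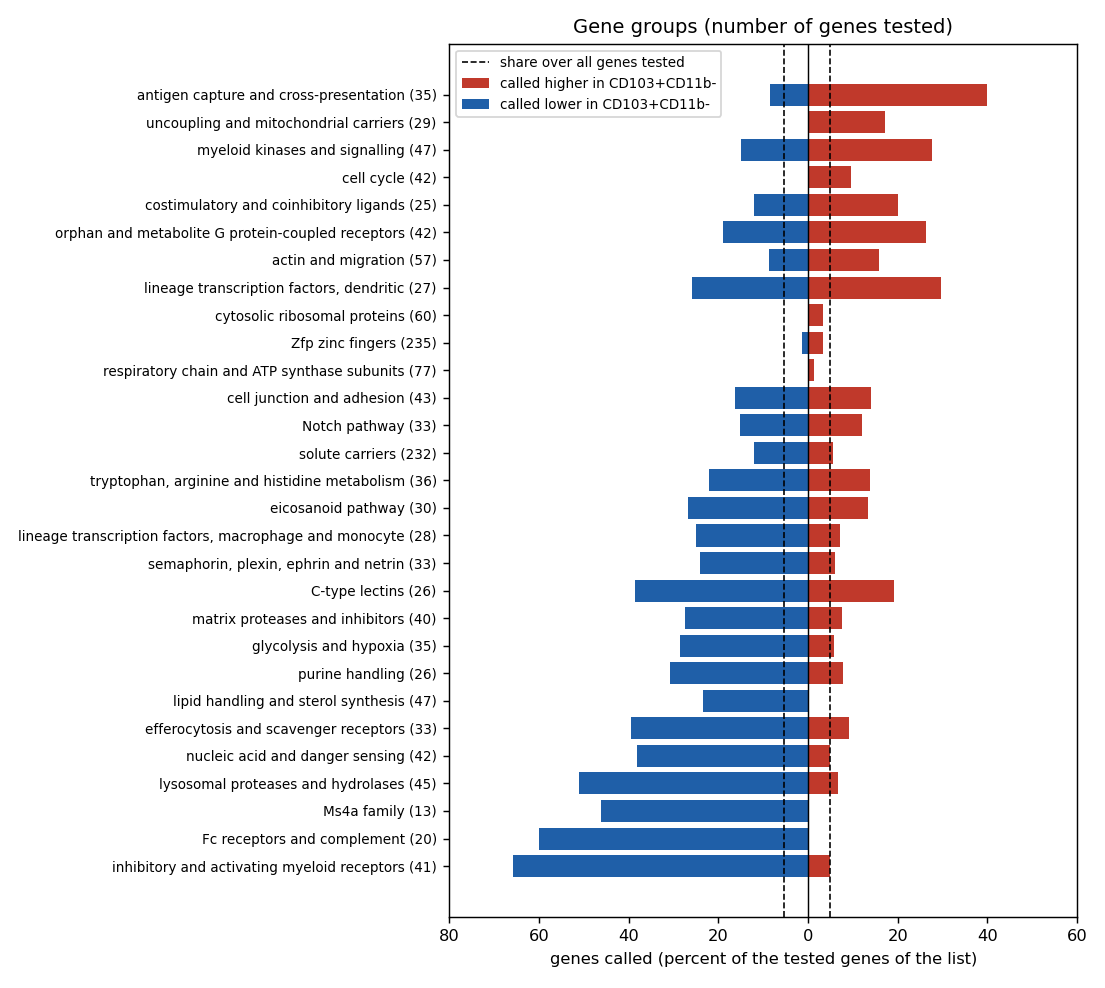
Share of the tested genes of each list shown (percent, horizontal axis) called higher (red, to the right) or lower (blue, to the left) in CD103+CD11b- cells of untreated mice, with the number of genes tested after each name. Dashed lines mark 5.01% and 5.32%, the shares over all 14003 genes, which myeloid receptors (65.9% lower) and cross-presentation genes (40% higher) exceed most on either side.

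GAGGAAGT is a binding motif of PU.1, a factor of all myeloid cells whose gene Spi1 was lower by -0.49 ± 0.14. Its letters were looked for on either strand, and a gene again counted when any of its windows matched. Of genes with a promoter, 20 of 243 lower by at least 1 (8.2%) and 6 of 153 higher by at least 1 (3.9%) held them. The share was 2.9% over tested genes with a promoter and 2.4% over all windows. Promoters of 5 genes with this motif are printed to show it in genes of both directions, chosen after their values were seen. Fcgr4, an activating receptor for IgG, had levels of 4.64, 4.56 and 4.41 in CD103+CD11b- cells against 5.62, 7.59 and 5.81, a difference of -1.80 ± 0.35, or -1.18 without the CD103-CD11b+ array of experiment 2. Mmp12, the macrophage elastase, had 7.59, 8.03 and 8.25 against 10.60, 10.67 and 10.46. Tlr1, a receptor for bacterial lipopeptides, differed by -1.05 ± 0.25 (adjusted p = 0.0504 without the CD103+CD11b- array of experiment 3). Inpp5d (SHIP1), a lipid phosphatase that damps receptor signals, had 9.10, 8.85 and 8.98 against 7.59, 7.59 and 7.64 and was higher by 1.37 ± 0.15. Btla, an inhibitory receptor for HVEM, had 6.94, 6.90 and 7.27 against 5.12, 4.89 and 5.13 and was higher by 1.99 ± 0.16. Capitals mark the motif in the stretches of 120 bases, again 5′ to 3′ on the strand of the gene.
Fcgr4, chr1:171018806-171018925, plus strand: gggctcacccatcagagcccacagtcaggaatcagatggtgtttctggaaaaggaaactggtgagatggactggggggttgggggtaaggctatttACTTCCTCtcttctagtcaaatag
Mmp12, chr9:7344277-7344396, plus strand: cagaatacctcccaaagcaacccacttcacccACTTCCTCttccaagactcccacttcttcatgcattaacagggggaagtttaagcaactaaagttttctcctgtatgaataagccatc
Tlr1, chr5:64933559-64933678, minus strand: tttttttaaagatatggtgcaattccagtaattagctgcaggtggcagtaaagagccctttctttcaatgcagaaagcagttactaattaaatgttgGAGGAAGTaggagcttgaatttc
Inpp5d, chr1:87620192-87620311, plus strand: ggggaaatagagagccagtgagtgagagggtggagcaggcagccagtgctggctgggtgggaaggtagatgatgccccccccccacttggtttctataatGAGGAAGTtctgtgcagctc
Btla, chr16:45224217-45224336, plus strand: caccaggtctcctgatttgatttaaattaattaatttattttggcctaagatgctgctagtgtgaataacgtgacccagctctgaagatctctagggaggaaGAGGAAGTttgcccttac

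Other motifs were searched in the same windows, on both strands, and shares of genes were counted in the same way. The ETS-IRF composite was in 4.9% of the promoters of genes lower by at least 1 and 2.6% of those higher by at least 1, beside 2.5% of tested genes with a promoter. The paired interferon half-element was in 7.4% and 3.3% beside 3.2%, and the AP-1 motif TGANTCA in 9.5% and 11.1% beside 6.0%. The Notch motif GTGGGAA was in 7.4% and 5.2% beside 6.2%, and the E-box CACCTG that ZEB factors recognize in 18.1% and 24.2% beside 19.5%. The C/EBP motif TTGCGCAA, the NFIL3 motif TTATGTAA and the palindromic NF-kB motif were in at most 2.0% of either set, and the LXR direct repeat and the MAF recognition element were in none of the windows of tested genes. Of all windows, 2.3% held the composite, 3.0% the interferon pair, 6.7% TGANTCA, 5.4% GTGGGAA and 17.2% CACCTG. GAGGAAGT and the composite can overlap, since both hold GGAA. These matches are letters in a window and not measured binding.

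MHC class II loading split between enzymes and the class II molecules themselves. Of 16 tested genes 5 were lower (31.2%) and 2 higher (12.5%), beside 5.32% and 5.01% of all genes. The lower ones were enzymes of the endosome and lysosome, namely Ifi30, a thiol reductase, at -0.68 ± 0.12, Ctsl, Lgmn, cathepsin S (Ctss) at -1.05 ± 0.13 and cathepsin B (Ctsb) at -1.01 ± 0.18. The higher ones were the lipid-presenting Cd1d1 at a lower bound of 0.79 and H2-Ob, an inhibitor of peptide loading, at 0.40 ± 0.13, a call lost with the experiment as a block (adjusted p = 0.0587). Costimulatory and coinhibitory ligands had 5 of 25 higher (20%) and 3 lower (12%). Btla led the higher ones, followed by Cd200, a ligand that quiets myeloid cells, at 0.95 ± 0.21. Vsir (VISTA), an inhibitory ligand, led the lower ones at -1.24 ± 0.26. The higher count was 3 without the CD103-CD11b+ array of experiment 2 and 2 without the CD103+CD11b- array of experiment 3, and the lower count was 1 without the former. The classical ligands were not called: Cd80 differed by 0.34 ± 0.13, Cd86 by 0.28 ± 0.11 and Cd274 (PD-L1) by 0.37 ± 0.12, each with a 95% interval above 0 and an adjusted p between 0.0612 and 0.137. Cd274 was called with an intensity trend and robust prior (adjusted p = 0.0205) and with a filter at the 60th percentile (0.0409), and Cd80 was called, at 0.50, where its probe sets were averaged (0.0278). Ccr7, the receptor that guides migrating dendritic cells to lymph nodes, differed by 0.02 with an interval from -0.23 to 0.27.

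Of 33 efferocytosis and scavenger receptors 13 were lower (39.4%, beside 5.32% of all genes), 3 higher and 17 not called. The lower ones included them the mannose receptor Mrc1 with 7.03, 7.09 and 6.63 against 9.32, 9.96 and 9.24, the phagosomal glycoprotein Gpnmb at -2.99 ± 0.38 and Cd93 at -1.72 ± 0.23. Against this direction went the fatty acid translocase Cd36, with 9.87, 9.86 and 9.94 against 8.77, 8.87 and 8.28, the phosphatidylserine receptor Havcr1 (TIM-1) at 1.00 ± 0.20 and its relative Timd4 at 0.74 ± 0.20, whose call was lost under some alternatives. Of 47 genes of lipid handling and sterol synthesis 11 were lower (23.4%), none higher and 36 not called, with a median of -0.21, and 7 were lower in a fit on only the 6 arrays compared. The cholesterol exporter Abca1 had 6.46, 6.60 and 6.11 against 8.27, 9.27 and 8.67 (-2.35 ± 0.21). Its relative Abcg1 differed by -1.08 ± 0.20, apolipoprotein E (Apoe) by -1.70 ± 0.15, the phospholipid transfer protein Pltp by -2.11 ± 0.15 and the lipid droplet coat Plin2 by -1.74 ± 0.19. Iron handling had 5 of 25 lower (20%) and none higher. After Hamp, the lower ones included the biliverdin reductase Blvrb at -1.44 ± 0.22, transferrin (Trf) at -1.06 ± 0.15 and ceruloplasmin (Cp) at -1.02 ± 0.16. ABC transporters as a family had 7 of 31 lower (22.6%) and 1 higher (3.2%), or 4 lower without the CD103+CD11b- array of experiment 3.

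The list of uncoupling and mitochondrial carriers, which also holds the enzyme Acadl, had calls in 1 direction. In CD103+CD11b- cells 5 of 29 genes were higher (17.2%, beside 5.01% of all genes) and none lower. The median was only 0.06. Ucp1 (probe set 10573152), the uncoupling protein known for heat production in brown fat, had levels of 9.48, 9.22 and 9.05 against 6.18, 5.90 and 5.68, a 10.1-fold difference. Slc25a20, which carries acylcarnitines into mitochondria for fatty acid oxidation, had 9.26, 9.57 and 9.42 against 7.34, 7.24 and 7.71 (1.99 ± 0.19). The pyrimidine carrier Slc25a33 differed by 0.93 ± 0.17 and the long-chain acyl-CoA dehydrogenase Acadl by 0.67 ± 0.15. Plasma membrane carriers of carnitine were higher too, Slc22a21 by 1.45 ± 0.20 and Slc22a5 by 0.65 ± 0.18, the latter call being lost under some alternatives. Over all 232 tested solute carriers 13 were higher (5.6%) and 28 lower (12.1%), beside 5.01% and 5.32% of all genes. The lower count was 16 without the CD103+CD11b- array of experiment 2. The higher ones were led by the acetyl-CoA transporter Slc33a1 at 2.00 ± 0.19. The lower ones included the nucleoside transporter of lysosomes Slc29a3, with 6.38, 6.70 and 6.52 against 8.44, 9.04 and 8.41, the amino acid transporters Slc7a7 at -1.55 ± 0.20 and Slc7a8 at -1.48 ± 0.22, and the lactate exporter Slc16a3 at -1.50 ± 0.19.

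Enzymes that make or break small signalling molecules differed in both directions. In the eicosanoid pathway 8 of 30 genes were lower (26.7%) and 4 higher (13.3%), beside 5.32% and 5.01% of all genes. The platelet-activating factor hydrolase Pla2g7 had 7.63, 7.78 and 7.69 against 9.55, 10.19 and 9.43, the cyclooxygenase Ptgs2 differed by -1.48 ± 0.14 and the 5-lipoxygenase Alox5 by -1.33 ± 0.24. The higher members were receptors and the lipoxygenase partner Alox5ap (Cysltr1 at 0.88 ± 0.22, Ptger2 at 0.74 ± 0.20, Alox5ap at 0.69 ± 0.19 or 0.36 without the CD103-CD11b+ array of experiment 2, Ptger4 at 0.45 ± 0.13), but none of these held in every alternative. All 4 lost their calls without the CD103-CD11b+ array of experiment 2, where 1 other gene of the list was called higher, and all 4 without the CD103+CD11b- array of experiment 3, where none was. Without the CD103+CD11b- array of experiment 1 the call of Cysltr1 alone remained. In purine handling 8 of 26 were lower (30.8%) and 2 higher (7.7%). Adenosine deaminase (Ada), which removes adenosine, had 6.62, 6.52 and 5.99 against 8.76, 9.34 and 8.53 (-2.50 ± 0.19), the ADP receptor P2ry13 differed by -1.60 ± 0.27 and the channel Panx1 by -1.50 ± 0.17. Higher were P2ry14, a receptor for UDP-sugars, at 1.00 ± 0.14 and Dpp4 (CD26), a peptidase that binds adenosine deaminase, at 0.62 ± 0.14. Of 36 genes of tryptophan, arginine and histidine metabolism 8 were lower (22.2%) and 5 higher (13.9%). The higher count was 3 without the CD103-CD11b+ array of experiment 2 or the CD103+CD11b- array of experiment 3. After Hal, the mitochondrial arginase Arg2 was lowest at -2.31 ± 0.33, and the polyamine enzyme Odc1 was highest at 0.99 ± 0.16. Glycolysis and hypoxia genes had 10 of 35 lower (28.6%), led by Slc16a3, and 2 higher (5.7%). The higher ones were the phosphofructokinase Pfkp at 0.62 ± 0.13 and the phosphoglycerate kinase Pgk1 at 0.50 ± 0.14 (lost under some alternatives). The hexokinase Hk3 of myeloid cells differed by -1.13 ± 0.18.

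Orphan and metabolite G protein-coupled receptors were called on both sides, 11 of 42 higher (26.2%) and 8 lower (19%), beside 5.01% and 5.32% of all genes. After Gpr141b and Gpr33 the higher ones included Gpr141 at 1.47 ± 0.26 and Gpr82 at a lower bound of 1.32. The lower ones included the macrophage receptor Adgre1 at -1.72 ± 0.30, the butyrate and niacin receptor Hcar2 at -1.43 ± 0.19, the chemerin receptors Ccrl2 at -1.30 ± 0.14 and Cmklr1 at -1.11 ± 0.24, and Gpr183 (EBI2), an oxysterol receptor that positions dendritic cells, at -0.95 ± 0.12. Among 42 chemokines and chemokine receptors 11 were lower (26.2%) and 3 higher (7.1%), the higher ones being Xcr1, Cxcl9 and Cxcl11. Cytokines acting on lymphocytes and epithelium had 7 of 39 lower (17.9%) and 3 higher (7.7%). Il12b, the shared chain of interleukins 12 and 23, had 7.85, 8.15 and 7.45 against 5.74, 5.26 and 5.22. Il15, a cytokine for cytotoxic lymphocytes, had 6.88, 6.57 and 6.61 against 5.35, 5.66 and 5.02, and Lif was higher by 1.03 ± 0.25 (lost under some alternatives). Osm (oncostatin M), a cytokine for stroma, had 5.18, 5.39 and 4.60 against 7.38, 7.43 and 7.44. Il10 differed by -1.43 ± 0.37, or by -0.79 (adjusted p = 0.0722) without the CD103-CD11b+ array of experiment 2. Of 43 cytokine receptors 10 were lower (23.3%), among them Il7r at -1.61 ± 0.18, Il2ra at -1.26 ± 0.20 and Lifr at -1.12 ± 0.17. The 2 higher ones (4.7%) were Ifnar1 at 0.50 ± 0.14 and Il6st at 0.40 ± 0.12, both lost under some alternatives.

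Of 47 kinases and signalling proteins of myeloid cells 13 were higher (27.7%) and 7 lower (14.9%), beside 5.01% and 5.32% of all genes. Lrrk2, a kinase that acts on Rab GTPases, had levels of 9.24, 9.03 and 9.20 against 6.27, 5.88 and 6.01 (3.11 ± 0.13). Inpp5d, the Janus kinase Tyk2 at 1.02 ± 0.19 and the SRC kinase Fyn at 1.00 ± 0.15 followed. The lower members were adaptors and kinases of immunoreceptor signalling, with Blnk at -0.95 ± 0.16, Syk at -0.84 ± 0.16, Lat2 at -0.79 ± 0.16 and Lcp2 at -0.70 ± 0.12, and with Stat4 at -0.93 ± 0.15. Of 56 genes of NF-kB and MAP kinase feedback 6 were higher (10.7%) and 8 lower (14.3%). The kinase of the alternative NF-kB pathway Map3k14 and the NF-kB subunit Relb were higher by 0.86 ± 0.18 and 0.68 ± 0.14, and the phosphatase Dusp16 was lower by -1.51 ± 0.16. The lower count was 5 without the CD103+CD11b- array of experiment 1 or 3 and 4 without the CD103-CD11b+ array of experiment 3. In cell death and survival 4 of 33 genes were higher (12.1%) and 3 lower (9.1%). Bcl2l14 had 6.98, 6.50 and 6.81 against 4.91, 4.74 and 5.11, and the survival gene Bcl2l1 (BCL-XL) and the apoptosome gene Apaf1 were higher by 0.84 ± 0.13 and 0.79 ± 0.14. Ripk3, the kinase of necroptosis, had 5.72, 6.0 and 6.09 against 7.31, 7.65 and 7.14, and Naip2 was lower by -0.67 ± 0.14.

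Integrins differed beyond the pair used for sorting. Of 24 chains 6 were higher (25%) and 4 lower (16.7%), beside 5.01% and 5.32% of all genes. Itga1, a collagen receptor chain, had 7.15, 7.30 and 7.33 in CD103+CD11b- cells against 5.11, 4.96 and 5.31, and Itga3, a laminin receptor chain, had 8.02, 7.77 and 7.93 against 5.77, 6.02 and 6.05. Their partner Itgb1 was higher by 0.64 ± 0.14. Itga9, a receptor chain for tenascin, had 5.01, 5.39 and 4.78 against 6.83, 8.40 and 7.36, and Itgb5 was lower by -1.64 ± 0.25. Semaphorins, plexins, ephrins and netrins had 8 of 33 lower (24.2%) and 2 higher (6.1%). Sema4f and Sema7a (0.90 ± 0.17) were the higher ones, and the receptors Nrp2 at -2.21 ± 0.18, Plxnd1 at -2.11 ± 0.17 and Plxnc1 at -1.28 ± 0.17 were lower. Sema4d was lower by -1.37 ± 0.17, or by -0.89 where its probe sets were averaged. Junction and adhesion genes had 6 of 43 higher (14%) and 7 lower (16.3%). Among them were Cldn1 at 1.05 ± 0.22, the tetraspanin Cd81 at 1.02 ± 0.19 and Pecam1 at -1.51 ± 0.15. The counts were 3 higher without the CD103+CD11b- array of experiment 3 and 4 lower without the CD103-CD11b+ array of experiment 2.

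The machinery of actin and vesicles differed gene by gene. Of 57 actin and migration genes 9 were higher (15.8%) and 5 lower (8.8%), beside 5.01% and 5.32% of all genes. The actin-severing Scin had 9.38, 9.5 and 9.38 against 7.93, 7.64 and 7.25, Dock8, which dendritic cells need to migrate, was higher by 0.90 ± 0.14, and its relative Dock10 by 0.78 ± 0.15. The filament-capping Capg and the myosins Myo1e and Myo5a were lower by -1.79 ± 0.21, -1.28 ± 0.17 and -0.99 ± 0.17. The higher count was 4 without the CD103-CD11b+ array of experiment 2 and 3 without the CD103+CD11b- array of experiment 3, and the lower count was 3 without the CD103+CD11b- array of experiment 1. Of 50 Rab GTPases 6 were higher (12%) and 3 lower (6%). Rab7b, a GTPase of late endosomes and Golgi, led the higher ones at 1.22 ± 0.25. The lower count was 1 when any of 4 arrays was left out (experiments 2 and 3 of CD103+CD11b-, 1 and 2 of CD103-CD11b+). The syntaxin Stx17, which fuses autophagosomes with lysosomes, was the 1 called gene of 19 syntaxins and VAMPs, at 1.05 ± 0.16. The single called S100 gene of 11 tested was S100a4, at -1.71 ± 0.20.

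Of 40 matrix proteases and inhibitors 11 were lower (27.5%, beside 5.32% of all genes) and 3 higher, and 26 were not called. Mmp13 had 6.18, 6.61 and 5.62 against 8.20, 10.45 and 9.18, Mmp14 differed by -2.01 ± 0.21 and Mmp19 by -1.73 ± 0.17. Higher were the prolyl hydroxylase P3h2, with 9.80, 9.51 and 9.60 against 5.84, 7.53 and 6.22, and the membrane proteases Adam19, with 9.56, 9.83 and 9.64 against 8.07, 7.93 and 7.94, and Adam8 at 1.33 ± 0.18. Coagulation and fibrinolysis had 7 of 24 lower (29.2%), with 15 not called and a median of -0.04, among them the transglutaminase Tgm2 at -1.75 ± 0.19, factor X (F10) at -1.67 ± 0.32 and the urokinase receptor Plaur at -1.18 ± 0.21, and 2 higher, the protein C receptor Procr at 0.98 ± 0.13 and the plasminogen receptor Plgrkt at 0.74 ± 0.16. Serpins had 4 of 19 higher (21.1%, beside 5.01% of all genes) and none lower. Serpinb6b was higher by 1.82 ± 0.14 and Serpinb9, an inhibitor of granzyme B, by 0.83 ± 0.20. With the experiment as a block 2 serpins were lower.

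Of the developmental pathways, the Notch list (27.3% called) and the retinoic acid list (21.4%) held larger shares of called genes than all genes (10.3%), and the TGF-beta (11.1%) and Wnt (8.3%) lists shares near it. In the TGF-beta, activin and BMP list 4 of 45 genes were lower and 1 higher: Inhba, the activin A subunit, had 5.28, 4.98 and 4.62 against 8.08, 7.57 and 8.32, the co-receptor Eng differed by -1.46 ± 0.17 and thrombospondin (Thbs1) by -0.92 ± 0.18, and the receptor Acvrl1 was higher by 0.76 ± 0.15. The Notch pathway had 4 of 33 higher and 5 lower, or 3 lower without the CD103-CD11b+ array of experiment 2 or the CD103+CD11b- array of experiment 3. The ligand Jag2 had 5.72, 6.0 and 5.73 against 4.5, 4.40 and 4.22, and the receptor Notch4 had 4.83, 4.91 and 4.93 against 3.94, 4.04 and 4.04, while the receptor Notch1 was lower by -0.87 ± 0.16. In the retinoic acid pathway 3 of 28 were higher and 3 lower, with Dhrs9 at 1.68 ± 0.20 and Dhrs3 at -1.26 ± 0.15, and 1 was higher without the CD103+CD11b- array of experiment 2. The Wnt and catenin list had 2 of 36 higher and 1 lower.

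Of 42 genes of nucleic acid and danger sensing, which detect microbial products and damage, 16 were lower (38.1%, beside 5.32% of all genes) and 2 higher, and 24 were not called. Tlr4, the endotoxin receptor, differed by -1.96 ± 0.21, Ly86 (MD-1) by -1.56 ± 0.18, and the single-stranded RNA receptors Tlr8 and Tlr7 by -2.19 and -1.57, which are bounds because their CD103+CD11b- means lay under the filter level. The higher members were Tlr3 and the interferon factor Irf5, at 0.71 ± 0.14. Interferon targets had 7 of 42 higher (16.7%, beside 5.01% of all genes) and 5 lower (11.9%). Cxcl9 at 1.08 ± 0.19 and Trim30a at 0.84 ± 0.19 were among the higher ones, and Ifitm6 was lowest at -1.77 ± 0.20. Their higher count was 4 without the CD103+CD11b- array of experiment 3, their lower count was 2 without the CD103+CD11b- array of experiment 2 or 3, and with the experiment as a block it was 8.

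Families of general cell upkeep held few calls beside the 10.3% of all genes, though cell cycle genes (9.5%) came near that share. Of 77 respiratory chain and ATP synthase subunits 1 was called, Ndufb11 at 0.53 ± 0.15, a call that was lost without each of 5 arrays in turn (all but the CD103+CD11b- array of experiment 2), with an adjusted p of up to 0.152. Cytosolic ribosomal proteins had 2 of 60 higher and none lower, with a median of 0.16 that ran from 0.11 to 0.21 over the alternatives, and none of the 60 were called with the experiment as a block. Of 77 mitochondrial ribosomal proteins the 1 called was Mrpl42 at 1.18 ± 0.23, which was 0.78 without the CD103-CD11b+ array of experiment 3, and 2 were called with the experiment as a block. Proteasome subunits had 2 of 45 higher, the immunoproteasome subunit Psmb9 at 1.15 ± 0.33 and the activator Psme1 at 0.55 ± 0.16, both lost under some alternatives. Zinc finger genes named Zfp had 8 of 235 higher and 3 lower, with higher counts of 2 to 5 when any array but the CD103-CD11b+ one of experiment 1 was left out, and a lower count of 1 without that one or the CD103+CD11b- array of experiment 1 or 2. Krüppel-like factors and glutathione S-transferases had 0 calls by limma in 14 and 16 genes. At an unadjusted p under 0.05 there were 1 and 2 such genes, the largest being Klf2 at 0.43 ± 0.14 (called with a filter at the 60th percentile) and Gstm5 at -0.89 ± 0.29. Gstm5 was called with the experiment as a block (adjusted p = 0.00879). Cell cycle genes had 4 of 42 higher (9.5%, beside 5.01% of all genes) and none lower. They were the cyclins Ccnd3 at 0.79 ± 0.18 and Ccnd1 at 0.62 ± 0.14, the mitotic kinesin Kif23 at 0.80 ± 0.16 and thymidine kinase (Tk1) at 0.66 ± 0.14.

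Because each experiment gave 1 array of each subset, the difference could also be read within experiments. Of the 1447 called genes, 1439 had the same direction in all 3 experiments. The call used the same arrays and largely set this count. In 1421 of the called genes the groups did not overlap, which forces the same direction in every experiment. Ucp1 was the steadiest of the 60 largest differences, with 3.30, 3.32 and 3.37 in experiments 1, 2 and 3. Itgae followed with 2.93, 3.03 and 3.08, and Hal with -2.78, -2.85 and -2.67. The least steady was Hamp, with -3.93, -0.79 and -3.05, then Cst7 with -3.73, -1.59 and -2.69 and P3h2 with 3.97, 1.98 and 3.38. For each of these 3 genes experiment 2 gave the smallest difference. The median difference of the myeloid receptor list was -1.29, -1.67 and -1.01 in the 3 experiments, that of lysosomal genes -0.64, -0.90 and -0.53, and that of cross-presentation genes 0.24, 0.34 and 0.38. The first 2 medians were farthest from 0 in experiment 2, which holds the CD103-CD11b+ array that stood apart.

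**Figure D4:**
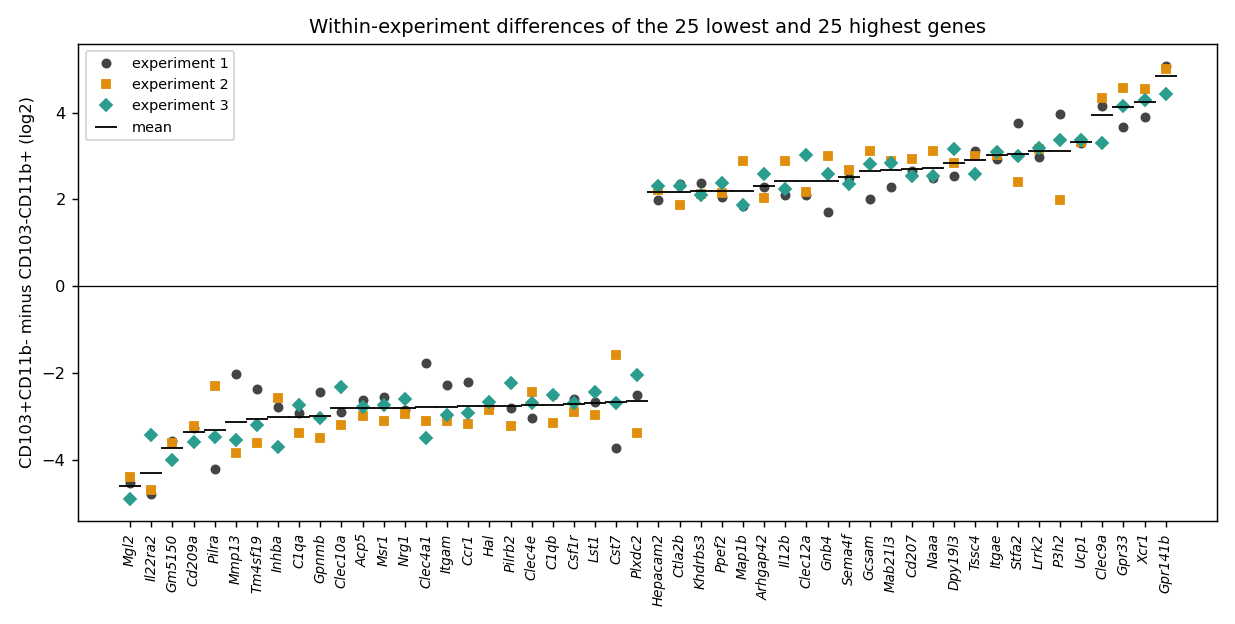
Difference between CD103+CD11b- and CD103-CD11b+ cells (log2, vertical axis) within experiments 1, 2 and 3 for the 25 genes with the lowest and the 25 with the highest mean difference, with a line at the mean. Only called genes whose groups did not overlap were drawn, which places all points of a gene on 1 side of 0. The points lie tightly for Ucp1 (3.30 to 3.37) and loosely for P3h2 (1.98 to 3.97).

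Untreated CD103+CD11b+ cells share 1 marker with each group, and their levels are given beside the others. Comparisons with them use the same arrays, so they are not independent of the main one. Flt3 had 7.89, 7.82 and 7.61 in CD103+CD11b+ cells, 1.33 ± 0.17 above CD103-CD11b+ cells (called), while CD103+CD11b- cells lay 0.48 ± 0.17 above them (adjusted p = 0.106, not called). Xcr1 had 7.31, 6.47 and 6.68 there, while Clec9a had 4.35, 4.03 and 4.34, close to its CD103-CD11b+ levels. Irf8 had 7.15, 7.13 and 6.70, below both other groups. Mgl2 had 9.29, 9.77 and 9.75 and Mmp12 10.20, 10.48 and 10.47, and both overlapped the CD103-CD11b+ levels. Csf1r had 7.86, 7.96 and 8.03, Zeb2 7.33, 7.45 and 7.51 and Abca1 6.92, 7.45 and 7.08, all between the other groups without overlap. Hamp had 7.75, 7.61 and 7.20, the highest of the 3 subsets on average.

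The same pair of subsets after DSS was measured on other arrays, so its differences do not reuse the untreated levels. The filter and the spread of each gene were taken from all groups together. A gene with a small spread is therefore favoured in both contrasts, and repeated calls are not independent. After DSS 1195 genes were called (8.53%), 587 higher (4.19%) and 608 lower (4.34%). Of the 1447 genes called in untreated cells, 1425 had the same sign after DSS, 884 were also called in the same direction (431 higher, 453 lower) and none was called in the opposite direction. All 30 of the largest rises and all 30 of the largest falls were called again. Their median difference was 2.58 in untreated and 2.18 in DSS cells for the rises, and -2.79 and -2.21 for the falls, and 24 and 29 of the 30 were smaller after DSS. Genes chosen for a large value in one set of arrays tend to be smaller in another, so these counts are a description. Gpr141b differed by 4.41, Mgl2 by -3.80, Hamp by -3.23 and Bcl2l14 by 2.47 after DSS. Ms4a7 differed by -1.18 ± 0.37 (adjusted p = 0.0585) and Cd36 by 0.53 ± 0.20 (adjusted p = 0.132), so these 2 were not called after DSS. The test of the difference between the DSS and the untreated contrast called 0 genes by limma, with or without the experiment as a block, and 510 genes had an unadjusted p under 0.05 (3.64%). Because no experiment held both conditions, experiment and treatment cannot be told apart.

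**Figure D5:**
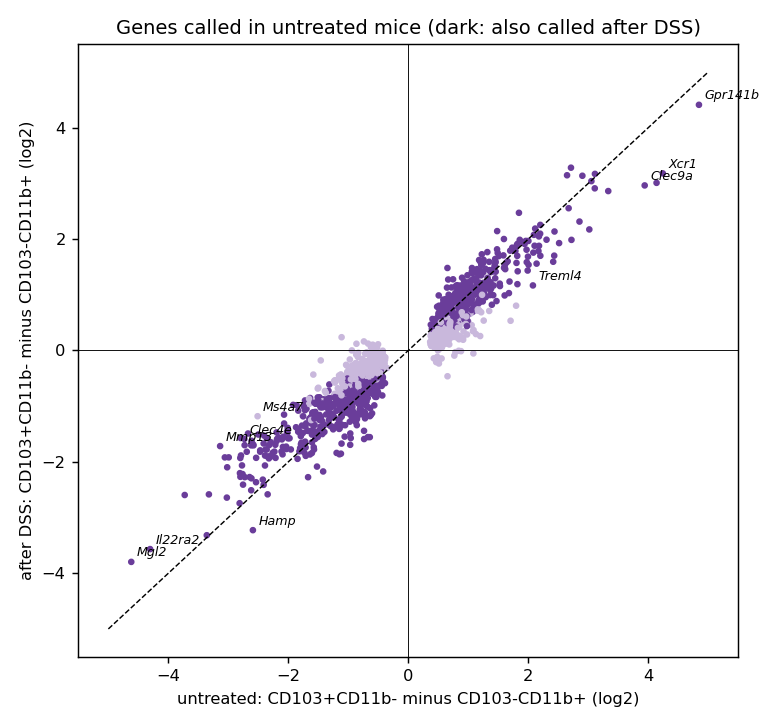
Difference between CD103+CD11b- and CD103-CD11b+ cells (log2) in untreated mice (horizontal axis) and after DSS (vertical axis) for the 1447 genes called in untreated mice, with a dashed line at equal values. Dark points are the 884 genes also called in the same direction after DSS, and 1425 of all points have the same sign on both axes.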

How the data were processed

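Values were used on the log2 scale on which the authors deposited them, after RMA (background correction, quantile normalization and summary by probe set) per the submitters' processing notes, with the version not given in the sources used here. Per the labels' protocols, 5 ng of RNA was amplified, and small inputs can widen the spread at low levels. Of 34760 probe sets, 21640 had 1 gene symbol in the platform annotation, 21553 of them matched in RefSeq tables, and 1321 had several and 11799 none. A gene was represented by its probe set with the highest mean, and 14003 of 19937 genes passed a filter at the 40th percentile of all values (3.51) in at least 3 of the 18 arrays. A group mean under 3.51 makes a difference a lower bound, by this convention and not by a measured background.

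All groups were fitted together in R 4.3.3 with limma 3.58.1 (lmFit and eBayes), and p-values were adjusted by Benjamini-Hochberg over all genes tested. The script was tested on simulated data. Same-experiment arrays deviated together (correlations of 0.319, 0.152 and 0.154), so the experiment numbers in the titles pair the arrays. The SE values, adjusted p-values and calls printed above come from the fit without this pairing, unless an alternative is named. With the experiment as a block 1537 genes were called, and 1378 of the 1447 remained.

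Genes were named by a rule: the sort genes, the 30 largest rises and falls whose groups did not overlap, up to 4 called genes in each direction of a list with those against its main direction, the lineage factors and growth factor receptors, and the extremes of spread. Genes outside it (19) were chosen after their values were seen. The members and lists were chosen with earlier results of these data known. Alternatives were other sets of arrays in the fit, scalings, filters, weights, priors, averaging of probe sets and leaving out each array. One gene family is not reported here.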

Additional observations from a re-analysis of the deposited data

How the results depend on the processing

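No gene called in untreated cells changed sign in any of the 17 alternatives, and 269 of the 376 called genes that were open to naming were called in every one. The count of genes called was 1447 and ran from 975 to 1537 over the alternatives that keep all replicates. On only the 6 arrays compared, 460 genes were called higher in place of 702, with fewer arrays to estimate the spread. Leaving out 1 array gave 1053 to 1267 called genes, 508 to 601 higher and 545 to 689 lower. The replicate block gave 1537 (728 higher, 809 lower), and 0 for the difference between the contrasts. Among single genes it ended the calls of Acvr1b, Aldh1a3, Csf2rb2, H2-Ob, Icam1, Kcnj13, Ptger4, Rpl4 and Rps27l, whose adjusted p by limma then lay between 0.0507 and 0.0667, and made that of Gstm5, and it changed no other call among the genes open to naming. On only the 6 arrays compared, the lower counts were 7 for lipid handling, 3 for macrophage factors, 3 for Notch, 4 for NF-kB feedback, 16 for solute carriers and 1 each for Rab GTPases and Zfp genes, and the higher counts were 2 for costimulation, 1 for eicosanoids and 3 each for junctions, actin and NF-kB feedback, and 2 for Zfp genes. Applying quantile normalization again gave 662 higher and 789 lower, and equal array medians 633 and 756. Signs turned only in uncalled genes close to 0. With array weights Ccr7 was -0.08, Klf4 -0.03 and Naglu -0.05. With quantile normalization again Ccr7 was -0.06 and Klf4 -0.02, and with equal array medians Klf4 was -0.02. With 1 array left out, Ccr7 ran from -0.05 to 0.11, Csf2ra from -0.25 to 0.07, H2-Aa from -0.06 to 0.03, H2-Ab1 from -0.2 to 0.04, Itgb7 from -0.05 to 0.37, Klf4 from -0.13 to 0.11, Naglu from -0.21 to 0.25 and Zbtb46 from -0.05 to 0.25. The cause of these turns was not tested. With 3 arrays a side and a median SE of 0.166, small differences of dim genes were not detectable.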
